A study of Mus musculus with 2 samples.

Results

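Natural killer (NK) cells of the newborn mouse lung were taken from a single-cell RNA-seq library by a rule on measured values. A cell was counted as an NK cell if mitochondrial transcripts made up at most 10% of its total, if at least 3 of the 6 genes Nkg7, Gzma, Klrb1c, Ncr1, Prf1 and Klrd1 were above 0, and if Cd3e, Cd3d, Cd3g, Cd79a, C1qa, Pecam1 and Col1a2 were all at 0. Of 11306 cells, 10660 passed the mitochondrial limit, and 69 of these met the rule, a share of 0.647% (exact Clopper-Pearson 95% interval 0.504 to 0.818%). Because the cells were chosen by these values, differences from other cells are given as descriptions and none was tested.

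The library came from wild-type peripheral lung at postnatal day 3, labelled as control lung, and was made with the Chromium 10X 3′ v3 chemistry from cells sorted by flow cytometry. The gate of that sort and the number of animals are not given in the sources used here. A second sample, at the same age and also labelled as control lung, was bulk RNA-seq of PDGFRA+ cells. These were sorted from Pdgfra-H2BGFP lung, where cells with an active Pdgfra locus carry green fluorescent protein in their nuclei. Each group had 1 sample, so no value has a replicate error, and all intervals cover counting error only.

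NK cells are innate lymphocytes that kill infected or altered cells by releasing perforin and granzymes, and that secrete interferon gamma and chemokines. Their activity is set by the balance of activating receptors, which signal through adaptors such as DAP12, DAP10 and the Fc receptor gamma chain, and inhibitory receptors that bind MHC class I molecules. They carry no rearranged T cell receptor, they depend on interleukin 15, and in the mouse they pass from a CD27+ to a CD11b+ stage as they mature.

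The promoters of 3 rule genes are shown because Gzma (granzyme A), Prf1 (perforin) and Ncr1 (the activating receptor NKp46) define the cells and encode their killing machinery and a defining receptor. Each is the 250 bases before the RefSeq start site (GRCm38.p6), read 5′ to 3′ on the gene's strand, and capitals mark matches on either strand to TGTGGT (a RUNX motif), AGGTGT (a T-box motif) or GGAAGT (an ETS motif).
Gzma: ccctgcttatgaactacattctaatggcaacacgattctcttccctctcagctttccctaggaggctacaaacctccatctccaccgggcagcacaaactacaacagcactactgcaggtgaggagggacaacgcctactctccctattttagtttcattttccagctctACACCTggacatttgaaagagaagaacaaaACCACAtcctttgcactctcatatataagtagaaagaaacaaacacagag
Prf1: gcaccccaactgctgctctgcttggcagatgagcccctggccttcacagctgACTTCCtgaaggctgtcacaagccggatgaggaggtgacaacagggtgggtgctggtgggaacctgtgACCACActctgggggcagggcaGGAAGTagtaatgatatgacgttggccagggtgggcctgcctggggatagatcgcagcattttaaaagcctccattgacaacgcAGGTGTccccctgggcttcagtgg
Ncr1: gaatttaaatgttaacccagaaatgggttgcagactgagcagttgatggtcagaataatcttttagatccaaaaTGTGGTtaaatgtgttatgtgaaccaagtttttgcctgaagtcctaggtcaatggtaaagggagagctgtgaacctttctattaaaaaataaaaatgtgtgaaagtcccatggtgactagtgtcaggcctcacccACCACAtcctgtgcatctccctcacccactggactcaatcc
The Gzma window lies at chr13:113100982-113101231 on the minus strand and holds 1 RUNX and 1 T-box match. The Prf1 window lies at chr10:61297586-61297835 on the plus strand and holds 1 RUNX, 1 T-box and 2 ETS matches. The Ncr1 window lies at chr7:4337465-4337714 on the plus strand, is the first of 2 starts listed for the gene, and holds 2 RUNX matches. Over 32851 promoter windows of the same length, 14% held the RUNX letters, 11.8% the T-box letters and 19.7% the ETS letters, so a match is a description and not a binding site.

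The single-cell table gave depth-corrected UMI values, taken as such from the values themselves. Levels below are the values of all cells in a class, added up and scaled to sum to 1000000 (CPM), and 1 corrected UMI in the NK cells is worth 2.78 CPM. Cell totals spanned 3859 to 6899 over the library (all 11306 barcodes were distinct). The number of detected genes was lower in NK cells, with a median of 1329 (range 1022 to 3223), than in the 1061 cells with at least 2 of Cd3e, Cd3d and Cd3g, called T cells here (median 1733), or in the 10591 other kept cells (median 2073). Among NK cells, 4 of 69 were predicted doublets, against 399 of all 10660 kept cells (3.74%). Free RNA was present: Sftpc, a surfactant gene of alveolar type 2 cells, was above 0 in 98.6% of NK cells at 887 CPM, against 181388 CPM in epithelial cells. The share in mesenchymal cells (median 2586 detected genes), which should lack NK genes, is therefore given as background beside the share in NK cells of genes read as present there. Mesenchymal cells had Col1a2 and at least 1 of Col1a1, Col3a1, Dcn and Tagln above 0, with Pecam1 and Ptprc at 0. Ptprc is a pan-leukocyte gene, so this choice may make the share too low as a background for leukocyte genes.

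The 6 genes of the rule were unevenly detected. All 6 were above 0 in 12 of the 69 cells, 5 in 24, 4 in 21 and 3 in 12. Nkg7, a granule membrane protein, was above 0 in 97.1% of NK cells (median 8 corrected UMIs per cell, highest 25), in 29.1% of T cells and in 2.08% of mesenchymal cells. Gzma was above 0 in 94.2% of NK cells (median 21, highest 87), in 17.9% of T cells and in 5.89% of mesenchymal cells. Klrd1, the CD94 chain that pairs with NKG2 receptors, was above 0 in 79.7% of NK cells, 17.2% of T cells and 1.52% of mesenchymal cells. Ncr1 was above 0 in 75.4%, 5.0% and 0.393% of these classes, and Prf1 in 69.6%, 6.50% and 0.449%. Klrb1c, which encodes NK1.1, was above 0 in 36.2% of NK cells (25 of 69; interval 25.0 to 48.7%), 3.96% of T cells and 0.393% of mesenchymal cells. The choice of cells fixes the direction of these differences.

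**Figure D1:**
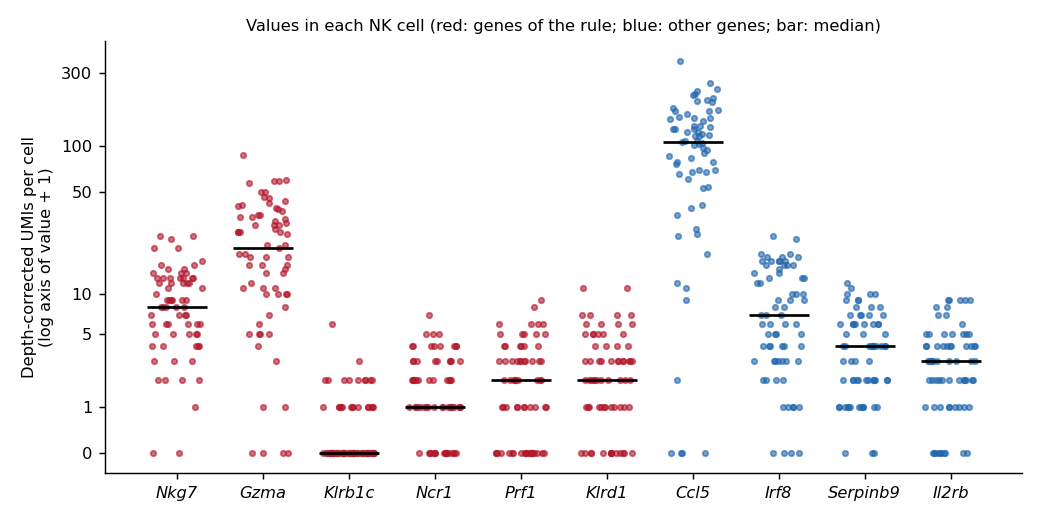
Depth-corrected UMIs in each of the 69 NK cells (log axis of value + 1) for the 6 rule genes (red) and 4 genes outside the rule (blue), with the median as a bar. Nearly every cell holds Nkg7, Gzma, Ccl5, Irf8 and Serpinb9, while the Klrb1c median is 0.

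The label was checked against markers that the rule did not use. Il2rb, the shared beta chain of the interleukin 2 and 15 receptors, was above 0 in 85.5% of NK cells, 36.8% of T cells and 1.57% of mesenchymal cells. Klrk1, the activating receptor NKG2D, was above 0 in 58.0%, 6.88% and 0.561% of these classes, and Klre1, an NK receptor gene, in 33.3%, 2.54% and 0.224%. The transcription factor gene Tbx21 (T-bet) was above 0 in 40.6%, 4.34% and 0.393%, and Eomes in 18.8%, 3.49% and 0.224%. Txk, a lymphocyte kinase, was above 0 in 82.6% of NK cells and 68.0% of T cells, so it marks both.

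Type 1 innate lymphoid cells are the nearest innate relatives of NK cells. Of 13 genes on their list that were tested against T cells, 0 were at least 2-fold higher in NK cells and 6 at least 2-fold lower (median log2 ratio -0.79). Over all 10165 genes tested between these classes, 6.19% were higher and 20.1% lower. The comparison is with T cells, so these counts do not separate NK cells from type 1 innate lymphoid cells. Il7r and Tnfsf10 were at 0 in all 69 NK cells, and Cxcr6 was above 0 in 3. Tnfsf10 is counted among the lower genes, but its T cell level lay below 8.35 CPM. That is worth 3 corrected UMIs over the NK cells, so a lower level is not resolved. Ikzf3 was above 0 in 21.7% of NK cells and 21.2% of T cells. Itga1 was above 0 in 3 NK cells and Tmem176a in 8 (11.1 and 44.5 CPM). Mesenchymal cells held these genes at 150 and 399 CPM (31.3% and 74.0% of cells). Their share is therefore no background for these genes, and the source of the NK values was not tested. A count of 0 in 69 cells allows a share of cells with a UMI of up to 4.35% (3 counts of 69, where the exact Clopper-Pearson limit is 5.21%) and does not limit the share of cells that express the gene.

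Between NK and T cells 10165 genes had a summed value of at least 20. Of these, 6.19% were at least 2-fold higher in NK cells (log2 ratio of 1 or more, with 1 CPM added to both sides) and 20.1% at least 2-fold lower. The median log2 ratio of all tested genes was -0.14. Against all other kept cells 4.73% of 15472 genes were higher and 40.3% lower by the same rule, with a median of -0.72. These shares are the background for every count below. A gene at 0 in NK cells counts as lower even where the comparison class lay below 8.35 CPM. That is worth 3 corrected UMIs over the NK cells, so such a difference is not resolved. "Higher" and "lower" below mean at least 2-fold against T cells unless another class is named. The T cells are not free of cytotoxic cells, since 131 of the 1061 had 3 or more of the rule genes.

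**Figure D2:**
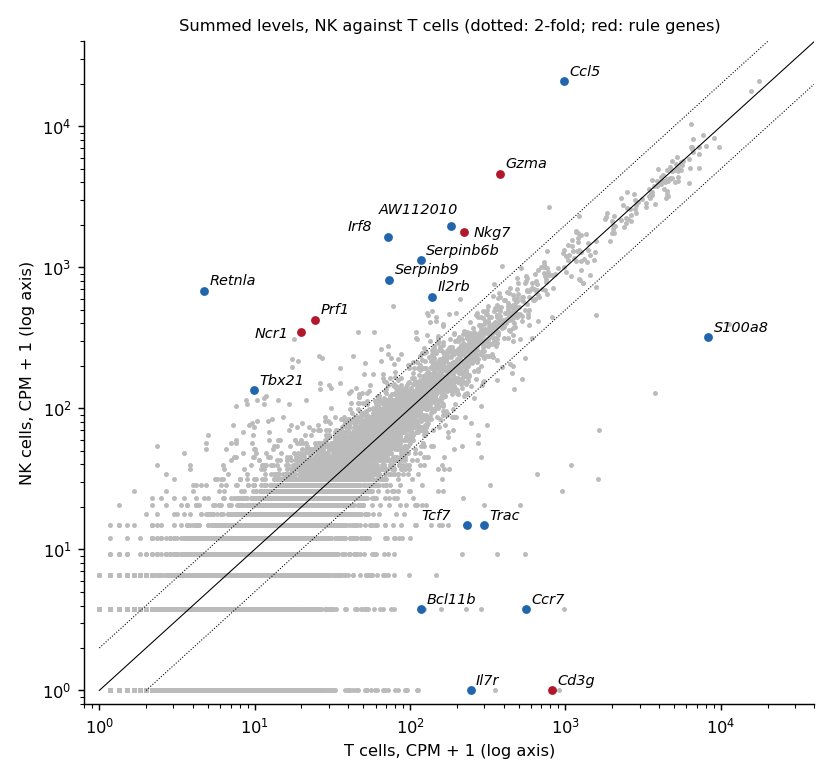
Summed level of each gene in NK cells (vertical) against T cells (horizontal), both as CPM + 1 on log axes, with the diagonal and dotted 2-fold lines. Ccl5, Irf8, Serpinb9 and Tbx21 lie above the upper line with the rule genes, Il7r and Ccr7 lie below the lower line, and Retnla rests on 1 cell.

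Of 17 activating receptor genes tested, 7 were higher and 4 lower (median log2 ratio 0.71), and without the rule genes 5 of 15 were higher (median 0.69). Klrk1 stood at 234 CPM in NK cells against 25.0 in T cells (0.561% of mesenchymal cells above 0). Klrc2, which encodes the activating chain NKG2C, was above 0 in 36.2% of NK cells, 4.43% of T cells and 0.224% of mesenchymal cells (122 CPM in NK cells against 10.9 in T cells). Slamf7, a receptor of the SLAM family, was above 0 in 34.8%, 4.90% and 0.168% (106 against 10.4 CPM). Cd244, a receptor for CD48, stood at 50.1 against 8.90 CPM, and basophils and mast cells at 113 CPM.

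Fcgr3, the Fc receptor CD16, stood at 103 CPM in NK cells, 73.2 in T cells and 417 in macrophages and monocytes. Cd2, an adhesion receptor, stood at 253 against 299 CPM, and Tnfrsf18, a receptor of the TNF family, at 125 against 145. Cd28, the T cell co-stimulatory receptor, was lower in NK cells, at 77.9 against 246 CPM. Slamf6 was above 0 in 1 NK cell and in 38.1% of T cells, and Crtam was at 0 in NK cells.

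Of 14 inhibitory receptor genes, 8 were higher and 5 lower (median 1.79, and 1.68 over the 13 without Klrd1). Klrb1b, an inhibitory member of the NK1.1 family, was above 0 in 72.5% of NK cells, 5.94% of T cells and 0.617% of mesenchymal cells (309 CPM in NK cells against 16.8 in T cells). Klrc1, which encodes the inhibitory chain NKG2A, was above 0 in 42.0%, 5.09% and 0.393% (195 against 16.5 CPM). Its log2 ratio over T cells was 3.49, and 0.87 among cells with 1500 to 2500 detected genes, where 10 NK cells were left. Among NK cells 23 held both Klrc1 and its partner Klrd1, 32 held Klrd1 only, 6 Klrc1 only and 8 neither. Klrd1 is a rule gene, so the choice of cells bears on these counts, and a link between the genes was not tested. Klrg1, an inhibitory receptor for cadherins, was above 0 in 23.2% of NK cells, 3.30% of T cells and 0.224% of mesenchymal cells (117 against 10.4 CPM). Checkpoint receptors known from T cells stood on both sides. Lag3 was among the higher genes, at 13.9 against 3.02 CPM, but was above 0 in 2 NK cells (2.90%, against 2.81% of mesenchymal cells). Pdcd1 was at 0 in NK cells and 54.9 CPM in T cells (at least 6.58-fold lower, against a floor of 3 corrected UMIs over the class) and Ctla4 at 11.1 against 78.3 CPM.

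Members of the Ly49 family (Klra genes), which bind MHC class I and are acquired during NK maturation, were rarely seen. Any of the 7 Klra genes in the table was above 0 in 10 of 69 NK cells (14.5%; 7.17 to 25.0%), and in 101 of 1061 T cells (9.52%). These genes are close copies, so the split of reads among them is uncertain. Klra5 was above 0 in 8 NK cells (11.6%, against 0.168% of mesenchymal cells), and Klra1 and Klra4 in 1 each. The 19 Klr genes outside the rule include the 7 Klra genes. At least 1 of the 19 was above 0 in 68 of 69 NK cells (median 3 genes per cell). Among T cells this held for 241 of 1061 (22.7%). Most Klr genes stand in one stretch of the genome, the NK gene complex. Of 34 genes of the table from Klrb1a to Klra2, 19 were tested: 10 of 11 Klr genes (Klrb1c and Klrd1 of the rule among them) were higher, as were 3 of 8 others. Of the 19, 4 were lower: Klra2 (log2 ratio -1.64) and, among the others, Clec2i (-1.02), 2310001H17Rik (-2.22) and Clec12a (-2.19). Neither higher nor lower among the others were the lectin receptor gene Cd69, at 25.0 against 31.4 CPM, and Clec2d, at 36.2 against 43.5. Clec2d encodes the ligand of the Klrb1b product.

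Of 24 adaptor and signalling genes, 5 were higher and 6 lower (median 0.56). Tyrobp, which encodes DAP12, was above 0 in 98.6% of NK cells and 45.5% of T cells (2668 against 787 CPM, and 4160 in neutrophils). Fcer1g, the Fc receptor gamma chain, was above 0 in 95.7% and 38.3% (1018 against 390 CPM). Mesenchymal cells held these genes in 21.2% and 12.9% of cells. Hcst, which encodes the NKG2D adaptor DAP10, stood at 626 against 342 CPM. Of the NK cells, 32 held both Klrk1 and Hcst, 24 Hcst only, 8 Klrk1 only and 5 neither. Pik3r1, a regulatory subunit of PI3 kinase, was higher at 442 against 145 CPM, and Syk at 108 against 46.0.

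Some members of the adaptor and signalling list act in T cell receptor signalling. Lat, the membrane scaffold of T cell receptor signalling, was lower at 13.9 against 174 CPM, Zap70 at 30.6 against 67.7 and Plcg1 at 8.35 against 29.6. Lck, a kinase that both lineages use, stood at 220 against 201 CPM and Cd247, the zeta chain, at 100 against 129.

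Of 20 cytotoxic granule genes, 9 were higher and 1 lower (median 0.61), and without the rule genes 6 of 17 were higher (median 0.32). Gzmb, granzyme B, was above 0 in 50.7% of NK cells, 8.86% of T cells and 1.74% of mesenchymal cells (348 CPM in NK cells against 57.3 in T cells). Every NK cell with Gzmb also had Gzma (35 cells), while 30 had Gzma alone and 4 neither. Gzma is a rule gene and was above 0 in 65 of the 69 cells, so most overlap with it follows from how common it was. Both granzyme inhibitors in the list were higher: Serpinb9 was above 0 in 95.7% of NK cells, 16.0% of T cells and 5.61% of mesenchymal cells (818 against 72.4 CPM), and Serpinb6b stood at 1124 against 116 CPM. Serpinb9 and Gzma were both above 0 in 62 of 69 cells, with Gzma alone in 3 and Serpinb9 alone in 4. Fasl, the death ligand, was above 0 in 55.1% of NK cells, 6.50% of T cells and 0.561% of mesenchymal cells (223 against 16.5 CPM), and Ctsw, a cathepsin of killer lymphocytes, stood at 278 against 71.4.

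Srgn, the granule proteoglycan and also on the granule list, stood at 954 against 1263 CPM, Stx11 at 47.3 against 50.6, Unc13d at 27.8 against 29.7 and Lamp1 at 153 against 134. Rab27a was above 0 in 5 NK cells, while Rab27b, which is on no list, was higher at 103 against 6.55 CPM (30.4% of NK cells and 1.35% of mesenchymal cells). Gzmm and Gzme were at 0 in all 69 cells. The death ligand gene Tnfsf10 was the lower member (log2 ratio -2.59). Its T cell level lay below the NK floor of 8.35 CPM, so a lower level in NK cells is not resolved.

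Of 19 cytokine and chemokine genes tested, 5 were higher and 9 lower (median -0.29, and -0.08 with genes at 0 set to the floor). Among the lower genes, Lta, Il2 and Il17a were at 0 in NK cells and at 6.05, 6.89 and 8.06 CPM in T cells. These levels lie below the floor of 8.35 CPM, so a lower level is not resolved for them. Ccl5, a chemokine for T cells and monocytes, was above 0 in 94.2% of NK cells, 26.4% of T cells and 15.1% of mesenchymal cells, with a median of 106 corrected UMIs per NK cell and a highest value of 362. Its level was 20933 CPM in NK cells, 976 in T cells and 632 in all other cells. Ccl4 stood at 192 against 34.3 CPM, and at 3653 in basophils and mast cells. Ifng was above 0 in 11 of 69 NK cells (15.9%; 8.24 to 26.7%), 3.49% of T cells and 0.224% of mesenchymal cells. Xcl1, a chemokine for dendritic cells, was above 0 in 10 of 69 NK cells (14.5%; 7.17 to 25.0%), 2.26% of T cells and 0.281% of mesenchymal cells. Vegfa, an endothelial growth factor, was higher at 52.9 against 12.3 CPM and above 0 in 12 NK cells. It stood at 142 CPM in epithelial and 84.8 in mesenchymal cells, and the part of free RNA in the NK value was not tested. Tnf was above 0 in 1 NK cell. Csf1, Il13, Il5, Il17a and Il22 were at 0 in all 69. The cells meeting a rule for group 2 innate lymphoid cells held Il13, a gene of that rule, at 591 CPM.

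Of 36 cytokine receptor and signalling genes, 8 were higher and 12 lower (median -0.20, and -0.08 with genes at 0 set to the floor). The higher ones include receptors for interleukins 15, 18 and 12. Il2rb stood at 620 CPM in NK cells, 137 in T cells and 45.1 in all other cells, whereas its partner Il2rg stood at 186 against 162. Il18rap stood at 348 against 44.9 CPM and Il18r1 at 209 against 50.4. Both chains were above 0 in 23 NK cells, Il18rap only in 27, Il18r1 only in 11 and neither in 8. Il12rb2 stood at 64.0 against 8.74, while Il12rb1 was at 0 in NK cells and at 4.87 in T cells. Stat4, which acts downstream of interleukin 12, stood at 214 against 64.0 CPM and Tgfbr2 at 181 against 78.8.

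Il7r, the interleukin 7 receptor of T cells and other innate lymphoid cells, was at 0 in all 69 NK cells and at 244 CPM in T cells, at least 29.3-fold lower. Il2ra and Il1rl1, the receptors for interleukins 2 and 33, were also at 0. Stat5a was above 0 in 1 NK cell and 23.2% of T cells, and Stat5b in 4 NK cells and 30.2%. Ifngr1 stood at 990 against 514 CPM and Ifngr2 at 13.9 against 86.9, so the 2 chains of the interferon gamma receptor differed in direction.

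Of 32 lymphocyte transcription factor genes, 7 were higher and 10 lower (median -0.11). Irf8, a factor of myeloid, B and NK cells, was above 0 in 94.2% of NK cells (median 7, highest 25), 12.9% of T cells, 47.8% of macrophages and monocytes and 20.1% of mesenchymal cells. Its level was 1647 CPM in NK cells, 70.7 in T cells and 180 in B cells. Tbx21 stood at 134 against 8.90 CPM and Eomes at 77.9 against 8.57. Both were above 0 in 6 NK cells, Tbx21 only in 22, Eomes only in 7 and neither in 34. Runx3, which with T-bet drives cytotoxic genes, stood at 345 against 108 CPM, and Id2, needed by innate lymphoid cells, at 223 against 82.0. Rora stood at 298 against 134 CPM, and at 637 in the cells of the group 2 innate lymphoid rule, which uses it.

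Factors of T cell development were in the lower group. Tcf7 was above 0 in 5 NK cells and 57.5% of T cells (13.9 against 231 CPM), Bcl11b in 1 NK cell and 42.1%, and Lef1 stood at 75.1 against 311 CPM. Satb1 was lower at 228 against 546 CPM. Ets1 stood at 412 against 663 and Nfil3, a factor of NK development, at 75.1 against 47.5.

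**Figure D3:**
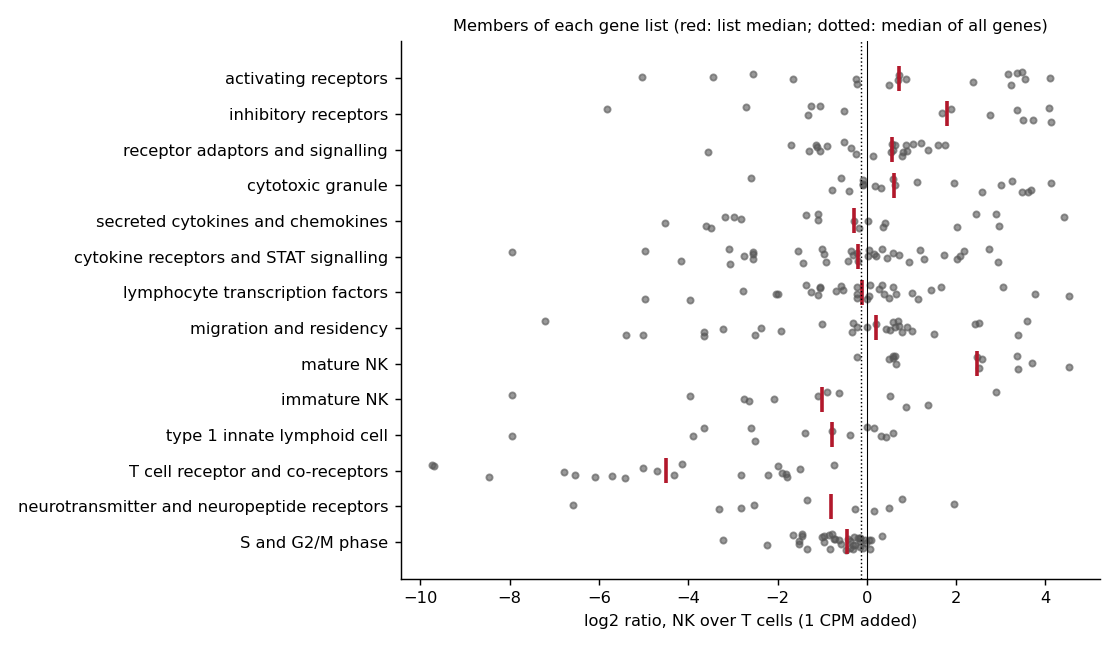
Log2 ratio of NK over T cells (1 CPM added) for each tested gene of 14 lists, with the list median in red and the median of all genes dotted at -0.14. The list of mature NK genes has its median at 2.47, and most lists hold genes on both sides of 0. Medians include any rule genes of a list. The median of T cell receptor genes, -4.51, includes Cd3e, Cd3d and Cd3g, which the rule sets to 0 and which define the T cells. It was -4.13 without them, and -2.27 over all the list with genes at 0 set to the floor.

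Genes of NK maturation were set beside each other. Of 13 genes of mature NK cells, 7 were higher and 0 lower (median 2.47), and of 12 genes of immature NK cells, 2 were higher and 6 lower (median -1.0, and -0.90 with genes at 0 set to the floor). Against all other cells the medians were 1.80 and 0.09, so the sign of the second depends on the comparison class. Cma1, a chymase found in mature mouse NK cells as well as mast cells, was above 0 in 39.1% of NK cells, 2.64% of T cells and 0.842% of mesenchymal cells (236 CPM in NK cells against 42.0 in T cells). Serpinb9b was above 0 in 12 NK cells, Cx3cr1 in 7 and S1pr5, which NK cells need to leave the bone marrow, in 5, against 0%, 0.617% and 0.112% of mesenchymal cells. Cd27 was above 0 in 11 of 69 cells and Itgam, which encodes CD11b, in 12; 2 cells held both and 48 neither. Cd27 was above 0 in 2.47% of mesenchymal cells and Itgam in 1.80%. The 2 stages could therefore not be assigned to most cells at this depth. Emb and Ltb, on the immature list, stood at 440 against 823 and 206 against 440 CPM, and Ctla2a was higher at 328 against 127.

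Of 29 migration and residency genes, 6 were higher and 9 lower (median 0.20, and 0.31 with genes at 0 set to the floor). Itga2, which encodes the NK integrin CD49b, was above 0 in 26.1% of NK cells, 3.86% of T cells and 7.18% of mesenchymal cells (106 CPM in NK cells against 7.90 in T cells). Itgb1, the integrin beta 1 gene, stood at 417 against 146 CPM. The lymph node homing genes were at the lower end: Ccr7 was above 0 in 1 NK cell and 64.6% of T cells, and S1pr1 in 6 and 53.0%.

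T cell receptor genes were partly set to 0 by the rule. Without Cd3e, Cd3d and Cd3g, 17 genes were tested, of which 0 were higher and 16 lower (median -4.13). With Cd3e, Cd3d and Cd3g included and genes at 0 set to the floor, the list median was -2.27. Cd4, Cd8a, Cd8b1, Cd6 and Themis were at 0 in all 69 cells, and Cd8b1 was at least 13.1-fold lower and Cd4 at least 11.1-fold lower. Trac was above 0 in 3 NK cells and 58.5% of T cells. The constant regions of the beta chain differed from this: Trbc1 was above 0 in 92.8% of NK cells and 65.1% of T cells (779 against 1302 CPM, with 11.9% of mesenchymal cells), and Trbc2 in 75.4% and 88.7% (9.54% of mesenchymal cells). Of the 64 NK cells with Trbc1, 61 had no Trac. Trdc, the delta chain, was above 0 in 14 cells (20.3%, against 1.35% of mesenchymal cells), and Tcrg-C1 and Tcrg-C2 were at 0. Trbc1 and Trbc2 are near-identical in sequence, so the split of reads between them is uncertain.

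Cells that the rule left out were set beside those it took. Of 10660 kept cells, 589 had 3 or more of the 6 rule genes, and 520 of these were left out because a gene required at 0 was above 0. Cd3g was above 0 in 453 of the 589 (76.9%), Cd3d in 208 and Cd3e in 137. In 166 cells Cd3g was the sole such gene, against 19 for Col1a2, 13 for Pecam1, 9 for Cd3d, 4 for Cd79a, 2 for Cd3e and 2 for C1qa.

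The 166 cells with Cd3g alone were set beside the NK cells gene by gene. Irf8 was above 0 in 92.8% of them, Ccl5 in 92.8%, Serpinb9 in 89.2%, Il2rb in 94.0%, Trbc1 in 92.2%, Trac in 3.01%, Trdc in 21.1%, Il7r in 7.23% and Ccr7 in 4.22%. T cells with 0 rule genes (667 cells) had Irf8 in 6.75%, Trac in 62.5%, Trdc in 9.0%, Il7r in 49.6% and Ccr7 in 70.3%. T cells with 3 or more rule genes (131 cells) lay between these for Irf8 (43.5%) and Trac (35.9%), and above both for Trdc (48.1%). Over 3119 genes at 50 CPM or more in the library, 3.66% were higher and 5.51% lower in NK cells than in the 166 cells, against 3.85% higher and 9.87% lower than in T cells.

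**Figure D4:**
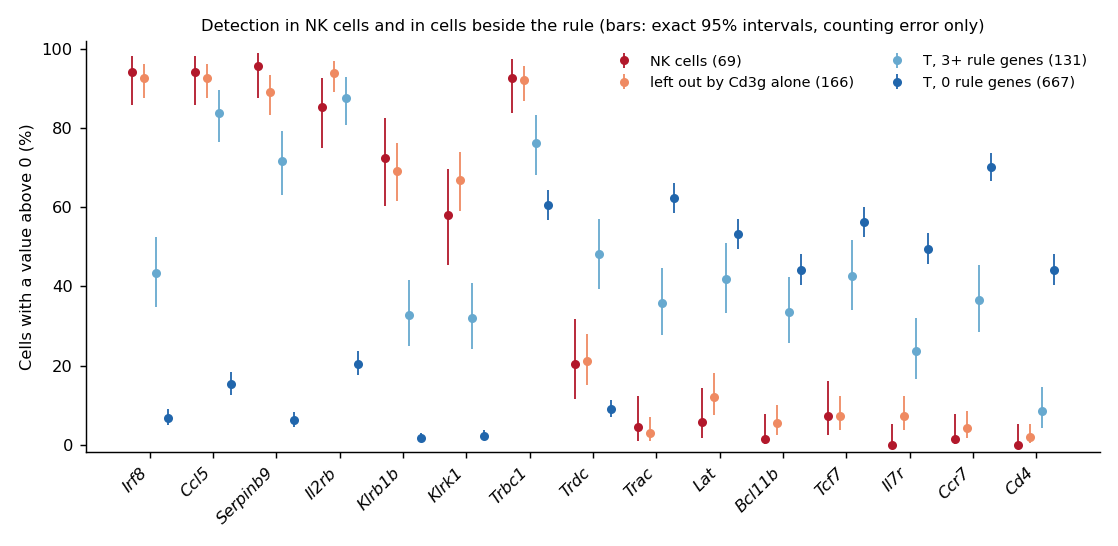
Share of cells with a value above 0 for 15 genes in NK cells (69), cells left out by Cd3g alone (166), T cells with 3 or more rule genes (131) and T cells with 0 rule genes (667), with exact 95% intervals. For Irf8 and Trac the NK cells and the cells left out by Cd3g alone lie close together, at 94.2% and 92.8% and at 4.35% and 3.01%.

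The share of such cells that met the rule differed with the number of detected genes. Of cells with 3 or more rule genes and 1000 to 1500 detected genes, 24% were NK cells (52 of 217), against 5.26% at 1500 to 2000, 1.68% at 2000 to 2500 and 6.93% above. Without the Cd3g requirement 235 cells, 2.20% of the kept cells, met the rule. With it left out, the log2 ratio over T cells was 4.15 for Ccl5 and 4.30 for Irf8, against 4.42 and 4.52 with it, but that of Il7r was -3.85 against -7.94. The value of -7.94 comes from 0 corrected UMIs of Il7r in the NK cells and the 1 CPM added. Against the floor, Il7r was at least 29.3-fold lower in NK cells, so the size of its shift is not resolved. The part of Cd3g detection in the NK counts was not tested further.

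Cells just outside the threshold of 3 rule genes were unlike those just inside it. The 15 cells that met all else with exactly 2 rule genes had a median of 2339 detected genes, and the 12 with exactly 3 had 1255. Ccl5 stood at 1335 and 13464 CPM, Irf8 at 147 and 964 and Il2rb at 124 and 719 in the cells with 2 and with 3.

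Cycling cells, defined by at least 5 of 15 G2/M genes above 0, made up 8 of 69 NK cells (11.6%; 5.14 to 21.6%) and 171 of 1061 T cells (16.1%; 14 to 18.5%). The 8 cells had a median of 2492.5 detected genes. Of 38 S and G2/M genes tested, 0 were higher and 9 lower (median -0.44), with Mki67 at 131 against 132 CPM and Top2a at 134 against 166. Among granule genes outside the rule, Gzmb stood at 277 CPM in the cycling cells against 358 in the other 61 NK cells, Serpinb9 at 808 against 819 and Fasl at 170 against 230.

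Since the series concerns autonomic nerves, receptors for their transmitters were looked at. Of 10 tested genes for neurotransmitter, neuropeptide and hormone receptors, 1 was higher and 5 lower (median -0.80, and -0.18 with genes at 0 set to the floor). Adora2a, an adenosine receptor, stood at 50.1 against 12.1 CPM. Adrb1 and the muscarinic genes Chrm1, Chrm2 and Chrm3 were at 0 in all 69 cells. Ramp1, a subunit of the receptor for the neuropeptide CGRP, was lower at 19.5 against 118 CPM, Calcrl, its partner, stood at 8.35 against 10.2, and Ramp3 was at 0. The glucocorticoid receptor gene Nr3c1 stood at 175 against 125 CPM.

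Markers of other cell types were measured in the same cells. Neutrophil markers summed to 798 CPM in NK cells, against 23830 in T cells and 21404 in all other cells, with 3 of 11 at 0 and 0 to 16 corrected UMIs per cell. S100a8 was above 0 in 73.9% of NK cells at 320 CPM, and in T cells at 8307. Basophil and mast cell markers summed to 250 CPM, nearly all of it Cma1, with Mcpt8 at 0 and 7 of 11 genes at 0. B cell markers summed to 61.2 CPM (5 of 11 at 0), endothelial markers to 77.9 (3 of 10 at 0), mesenchymal markers to 253 (4 of 11 at 0) and epithelial markers to 1132 against 11209 in all other cells. Monocyte and macrophage markers summed to 1396 CPM in NK cells against 2117 in T cells (1 of 15 at 0), and 16 of the 69 NK cells held 3 or more of them. Dendritic cell markers summed to 559 CPM against 932 (5 of 12 at 0), and erythroid and platelet markers to 11.1 in both (7 of 9 at 0). The part of these transcripts in the ratios above was not tested, except that Ccl5 and Irf8 kept log2 ratios over T cells of 4.42 and 4.53 without cells carrying neutrophil markers.

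One NK cell held all of the Retnla, a gene of some macrophages. It had 245 corrected UMIs of Retnla, the whole NK sum for that gene (682 CPM), with 49 of Lyz2, 75 of Cd74 and 32 of H2-Ab1, and it had 3 rule genes, 1 UMI of Gzma, 19 of Ccl5 and 1 of Irf8. It was not among the predicted doublets. Retnla therefore ranks among the highest ratios through that cell alone. Another NK cell, with 96 UMIs of Lyz2 and 2983 detected genes, was a predicted doublet.

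A rule for group 2 innate lymphoid cells asked for at least 3 of Gata3, Il1rl1, Rora, Il7r, Il13, Il5, Areg and Arg1 above 0. It also set to 0 the genes that the NK rule requires at 0, and left out cells that met the NK rule. It took 23 cells, which were mixed, since Mcpt8, a basophil gene, was above 0 in 7 and Il7r in 16. Of 3127 genes tested between the classes, 15.7% were higher in NK cells and 11.0% lower (median 0.13). Ncr1 and Prf1 were at 0 in the 23 cells, and Klrg1, which both lineages can carry, stood at 77.7 against 117 CPM in NK cells. Rora, a gene of the group 2 rule, stood at 637 against 298. The choice of cells bears on the values of Ncr1, Prf1 and Rora.

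The bulk library of PDGFRA+ cells held few NK transcripts in 171910584 reads. Gzma stood at 0.960 CPM (exact Poisson 95% interval 0.819 to 1.12; 165 reads), Nkg7 at 0.489 (0.390 to 0.605), Prf1 at 0.343 (0.261 to 0.443), Klrd1 at 0.279 (0.206 to 0.370), Klrb1c at 0.180 (0.123 to 0.256) and Ncr1 at 0.0640 (0.0319 to 0.114). The pan-leukocyte gene Ptprc stood at 5.08 CPM and Pdgfra, on which the cells were sorted, at 184. Ccl5 stood at 1.14 CPM and Irf8 at 42.8. In a bulk sample, few cells of a type and little RNA per cell cannot be told apart.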

How the data were processed

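The single-cell library gave 17758 genes in 11306 cells. Its deposited values are whole numbers treated as a score: UMI values that the authors appear to have corrected for depth, since cell totals span 1.79-fold and values of 1 make up 27.7% of the values above 0 in the 1000 cells with fewest genes against 74.3% in the 1000 with most. The step that made them, and the genome build of that table, are not given in the sources used here. Cell Ranger 5.0 and Seurat 3.2.2 are named per the submitters' processing notes. For the bulk library the notes name mm10 as the build, with featureCounts, HISAT2, Trim Galore and DESeq2. Its deposited expected counts by the authors were scaled to CPM, and its deposited TPM values by the authors served as the alternative. FPKM values by the authors were deposited too and were not used.

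The NK rule, the comparison classes and 30 gene lists were chosen with earlier results of these data known. Classes were summed, scaled to 1000000 and compared as log2 ratios with 1 CPM added, over genes with a summed value of at least 20 in both classes together. With 1 sample per group no test was run. Where a gene was at 0 in NK cells, a floor of 3 corrected UMIs over the class (8.35 CPM) gave the lower bound of a fold. Shares have exact Clopper-Pearson 95% intervals.

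Named genes are the rule genes, up to 6 members of each list by level and 4 by ratio over T cells, members of the receptor and granule lists, and the 15 highest and lowest ratios. Other list members that the text singles out, among them Cd247, Id2, Lef1, Stat5a, Vegfa and Zap70, were chosen after their values were seen. Some genes are not reported here. Predicted doublets, by a score written after Scrublet (expected share 5%), were kept. The steps were tested on simulated data. Python 3.11.15, numpy 2.4.6, scipy 1.17.1 and pandas 2.3.3 were used. Promoter windows and motif counts come from RefSeq sequences of GRCm38.p6.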

Additional observations from a re-analysis of the deposited data

How the results depend on the processing

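No paired analysis was possible because each group had 1 sample, so no replicate could be left out either. The count of NK cells as a share of kept cells was 0.647% and lay between 0.535% (at least 4 rule genes) and 0.759% (mitochondrial limit of 5%) under the planned settings. The counts of genes higher and lower by 2-fold depended most on the filter and on depth. Over T cells they were 629 and 2048, and became 1284 and 3616 with cells of 1500 to 2500 detected genes (10 NK cells), 376 and 1225 with 5 CPM added, 223 and 805 with a summed value of at least 100, and 1188 and 3452 with at least 1. Over all other cells 732 and 6232 became 423 and 3438 with 5 CPM added, and 1324 were higher at 1500 to 2500 detected genes. Over the cells of the group 2 innate lymphoid rule 491 and 344 became 93 and 112 at 1500 to 2500 detected genes, 53 and 51 with at least 100, and 3101 and 3436 with at least 1. Of 4 alternatives chosen after seeing the data, leaving the Cd3g requirement out gave 235 NK cells, a share of 2.20%, 1215 genes lower than in T cells and, against the group 2 innate lymphoid rule, 1210 higher and 703 lower. Retnla turned to -2.29 (T cells) and -4.97 (all other cells) with a limit of 5%, and to -2.23 and -5.25 with at least 4 rule genes, since both settings drop the 1 cell that holds it. No other 2-fold ratio among the genes followed changed sign under the settings run, but many moved by over 1.5-fold: 21 of 48 without T cells that had 3 or more rule genes and 42 of 96 without such cells in every comparison class (all upward), 42 of 96 at 1500 to 2500 detected genes (13 up, 29 down), 22 of 96 without the Cd3g requirement (14 up, 8 down) and 18 of 96 with 5 CPM added (10 up, 8 down). Ratios that fell short of 2-fold were, at 1500 to 2500 detected genes, Klrc1 over T cells (0.87), Itga2 (0.91) and Trbc1 (0.48) over all other cells, and, without Cd3g, Lat over all other cells (-0.58). In the bulk library the deposited TPM values were 2.33 for Gzma, 1.29 for Nkg7, 0.340 for Prf1, 0.460 for Klrd1, 0.140 for Klrb1c and 0.0900 for Ncr1. At 69 cells a gene at 0 may still have a UMI in up to 4.35% of cells, and expression below detection is not limited by this.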

Other observations

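Further gene groups were set beside T cells in the same way. Of 14 genes of MHC class I presentation, 1 was higher and 3 lower (median log2 ratio -0.06). H2-D1 and H2-K1, the classical class I genes, stood at 3294 against 2775 CPM and 1508 against 1206, while Tap1, a peptide transporter, stood at 22.3 against 67.9. Of 20 interferon-stimulated genes, 2 were higher and 9 lower (median -0.50, and -0.26 with genes at 0 set to the floor). Of 20 genes of glycolysis and amino acid uptake, 0 were higher and 4 lower (median -0.40), with Gapdh at 823 against 1215 CPM and Ldha at 501 against 544. Of 19 genes of dissociation stress, 0 were higher and 2 lower (median -0.22), with Junb at 1321 against 981 CPM and Fos at 41.7 against 109.

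Of 11 genes encoding ligands of NK receptors, 1 was higher and 4 lower in NK cells. Cd48, the ligand of the Cd244 product, was the higher one, at 108 against 45.5 CPM. Of 13 genes for signals that NK cells receive, 4 were higher and 3 lower (median 0.41), Ccl5 and Ccl4 among the higher. Il15 and Il2, among the lower, were at 0 in NK cells and below the NK floor in T cells, so a lower level is not resolved. Il15 was at 0 in all 69 NK cells and at 8.61 CPM in all other cells. Among genes outside every list, AW112010 stood at 1958 CPM in NK cells, 183 in T cells and 103 in all other cells. Samd3 and Gm44511 were each above 0 in 12 NK cells and in 0.168% of mesenchymal cells (50.1 against 3.86 and 52.9 against 1.34 CPM in NK and T cells). AW112010 was chosen after its values were seen. No cause was tested for any of these differences.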
